A study of Mus musculus with 8 samples.

Results

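Connexins are the proteins of gap junctions, and 5 connexin genes typical of brain glia were followed here: Gja1, Gjb6, Gjb2, Gjc3 and Gjb1. They were chosen by name and found by matching the Ensembl IDs of the files to symbols. All 5 were present among 55573 gene IDs and 20 connexin genes, and all 5 were among the 18205 genes with enough reads to be tested. RNA came from fluorescence-sorted cortical cells of C57BL/6-background mice that carry PV-Cre, a Cre recombinase driven from the parvalbumin locus, and a tdTomato reporter. Controls (WT) were PV-Cre/tdTomato/Dnmt1 wild-type mice, and knockouts (KO) were PV-Cre/tdTomato/Dnmt1 loxP2 mice, in which Cre removes exons 4 and 5 of the DNA methyltransferase gene Dnmt1. Controls therefore carry Cre and the reporter as well. Mice were 6 or 18 months old, which gives 4 groups of 2 libraries. The design text calls these technical replicates and says that cells of 6 WT and 6 KO animals were pooled, so the p-values given here measure the spread between libraries, which may be technical, and not that between animals.

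A connexon is a ring of connexins in the membrane, and connexons of neighbouring cells dock to form a channel that passes ions and small metabolites. In the cortex, astrocytes couple to each other mainly through connexin 43 (encoded by Gja1) and connexin 30 (Gjb6), with connexin 26 (Gjb2) as a lesser astrocyte connexin that is also made in the meninges. Oligodendrocytes make connexin 32 (Gjb1) and connexin 29 (Gjc3), among others. Connexin 32 pairs with connexin 30 in channels that join the glia into one network, while connexin 29 lies along the axon-facing membrane and forms few such channels.

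RNA of the defining marker of the labelled cells was near 0 in the sorted material. The parvalbumin gene Pvalb drew 6 reads in all, no library holding more than 2, and the interneuron factor Lhx6 drew 10. Summed markers of astrocytes (12 genes) and oligodendrocytes (12 genes) reached 3984 to 11928 and 14186 to 41599.7 CPM (counts scaled to a common library total), against 16.9 to 241 CPM for 9 markers of parvalbumin and GABA neurons. Dnmt1, the targeted gene, averaged 100.8 ± 4.03 CPM in 6-month WT (SD, n = 2) against 76.2 ± 1.39 in 6-month KO, and 80.9 ± 0.217 against 75.4 ± 1.64 for the 18-month pair. It fell in 6-month KO (-0.40 ± 0.07 SE on the log2 scale, edgeR adjusted p = 1.00e-04) and did not pass the test at 18 months (-0.10 ± 0.07, edgeR adjusted p = 0.281). With age it fell in WT (-0.32 ± 0.07, edgeR adjusted p = 5.86e-04) and did not pass in KO (-0.015 ± 0.07, edgeR adjusted p = 0.901). The log2 ratio of KO to WT at 18 months less that at 6 months was 0.30 ± 0.10 (edgeR adjusted p = 0.0202). A count over the whole gene is made mostly outside the deleted exons at either age, and the part of this in these values was not tested. The libraries held 6008175 to 13551218 counts. Both libraries of 6-month WT held the fewest (6008175 and 6024905), and every other library held at least 8481613. WT at 6 months stood apart: its Pearson's r of log2 CPM with other groups' libraries was 0.893 to 0.949 (across 17917 genes), while r was 0.952 to 0.972 between libraries of any other 2 groups and 0.972 to 0.989 within a group. The part of its lower read depth in this was not tested.

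Dnmt1 maintains methylation at CpG, a cytosine followed by a guanine, so the 250 bases before the start of each gene are shown with CpG in capitals. They are read 5′ to 3′ on the gene's own strand from RefSeq promoters of GRCm38.p6, the build that mm10 names. Methylation itself was not analysed here. Gja1 lies at chr10:56377330-56402513 on the forward strand, and its promoter at chr10:56377050-56377299 holds 6 CpG. Gjb6 (chr14:57123303-57133611) and Gjb2 (chr14:57098600-57104702) are neighbours on the reverse strand, 18600 bases apart with 1 annotated gene, Gm4491, between them. Their promoters at chr14:57133612-57133861 and chr14:57104703-57104952 hold 5 and 18 CpG. Gjc3 lies at chr5:137953461-137963098 on the reverse strand, with 3 CpG at chr5:137963099-137963348. Gjb1 lies at chrX:101376378-101385629 on the forward strand and has 4 listed starts. The first and the last are shown, at chrX:101376126-101376375 and chrX:101383482-101383731, with 2 and 10 CpG.
Gja1: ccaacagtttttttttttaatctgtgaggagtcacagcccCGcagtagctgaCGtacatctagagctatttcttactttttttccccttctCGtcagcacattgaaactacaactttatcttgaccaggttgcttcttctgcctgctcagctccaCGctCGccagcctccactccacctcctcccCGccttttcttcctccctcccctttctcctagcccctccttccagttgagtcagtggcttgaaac
Gjb6: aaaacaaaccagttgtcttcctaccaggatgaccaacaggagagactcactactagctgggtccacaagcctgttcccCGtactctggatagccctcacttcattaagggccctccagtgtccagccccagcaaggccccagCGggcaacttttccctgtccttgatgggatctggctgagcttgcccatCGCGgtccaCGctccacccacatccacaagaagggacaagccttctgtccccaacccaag
Gjb2: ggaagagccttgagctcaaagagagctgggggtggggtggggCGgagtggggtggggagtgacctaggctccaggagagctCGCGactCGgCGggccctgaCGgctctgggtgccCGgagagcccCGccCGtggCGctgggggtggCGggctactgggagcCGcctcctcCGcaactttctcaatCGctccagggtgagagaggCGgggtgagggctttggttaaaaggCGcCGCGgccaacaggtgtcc
Gjc3: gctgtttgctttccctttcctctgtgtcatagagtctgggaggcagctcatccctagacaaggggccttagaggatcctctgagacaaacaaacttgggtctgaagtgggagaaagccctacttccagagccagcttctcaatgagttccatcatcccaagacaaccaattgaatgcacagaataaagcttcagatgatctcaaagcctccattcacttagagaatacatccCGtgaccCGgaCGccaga
Gjb1, first start: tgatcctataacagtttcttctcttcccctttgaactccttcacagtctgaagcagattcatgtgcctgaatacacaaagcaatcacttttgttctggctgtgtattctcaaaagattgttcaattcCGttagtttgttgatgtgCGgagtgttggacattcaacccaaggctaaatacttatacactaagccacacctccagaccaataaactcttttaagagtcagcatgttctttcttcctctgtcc
Gjb1, last start: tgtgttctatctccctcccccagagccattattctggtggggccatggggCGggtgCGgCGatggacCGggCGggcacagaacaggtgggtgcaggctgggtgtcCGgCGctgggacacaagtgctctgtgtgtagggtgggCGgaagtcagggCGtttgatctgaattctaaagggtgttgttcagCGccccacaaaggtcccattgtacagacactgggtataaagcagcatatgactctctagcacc
Over the 32851 promoters of the table, the median was 6 CpG in 250 bases, with quartiles at 2 and 16. Gjb2 was thus above the upper quartile, and the others lay between the quartiles or, for the first Gjb1 start, at the lower one. A set of 6 short motifs was searched on both strands, and a match is a description of letters, not a site. TGAGTCA, the AP-1 motif, was found in 4.46% of promoters and occurred in that of Gja1, 19 bases before the start. GGGCGG, the SP1 motif (32.7% of promoters), occurred in that of Gjb2 at 2 places and in that of the last Gjb1 start at 3. TATAAA (12.4% of promoters) stood 29 bases before the last Gjb1 start. The SOX-type words ACAAAG (16.5%) and AACAAT (9.42%) occurred before the first Gjb1 start, and ACAAAG before the last. CAGCTG (13% of promoters) was in none of the printed windows, and none of the 6 motifs was in those of Gjb6 and Gjc3.

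The genes themselves are compact. The coding sequence of Gja1, Gjb6, Gjb2 and Gjb1 sits in 1 exon in the coding transcript examined, and that of Gjc3 in 2. The coding lengths are 1146 bases for Gja1, 783 for Gjb6, 678 for Gjb2, 807 for Gjc3 and 849 for Gjb1. The closest pair in coding sequence was Gjb6 and Gjb2, with 75.7% identity over 678 aligned bases. Identical runs were sought over whole annotated transcripts, untranslated parts included, and on both strands, so a run need not be coding. The longest such run was 20 bases for Gjb6 and Gjb2. For any pair it was 37 bases, in Gja1 and Gjc3, whose coding sequences had 64.6% identity over 756 aligned bases. No annotated gene overlaps any of the 5.

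Gja1, the main astrocyte connexin gene, was highest in WT at 6 months and lowest in WT at 18 months. Its libraries read 684 and 606 CPM in 6-month WT, 494 and 477 in 6-month KO, 265 and 241 in 18-month WT, and 586 and 589 in 18-month KO. The groups did not overlap in either genotype comparison, but they were ordered opposite ways: KO was below WT at 6 months and above it at 18 months. WT at 6 months and KO at 18 months, neighbours in the order of levels, differed by 57.7 CPM where the larger SD was 55.2 CPM.

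Gjb6, the second astrocyte connexin gene, had the same order of groups. It read 298 and 311 CPM in 6-month WT, 164 and 162 in 6-month KO, 95.8 and 105 in 18-month WT, and 239 and 239 in 18-month KO. Each group was separated from its neighbour in that order by at least 7.37 times the larger SD.

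Gjb2 was much lower than the other members, with 33 to 81 reads in a library. Its libraries read 9.71 and 8.77 CPM in 6-month WT, 4.35 and 5.01 in 6-month KO, 4.14 and 4.00 in 18-month WT, and 6.18 and 6.56 in 18-month KO. KO at 6 months and WT at 18 months differed by 0.613 CPM, 1.31 times the larger SD.

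Gjc3 and Gjb1, the oligodendrocyte members, had the mirror image at the extremes, lowest in 6-month WT and highest in 18-month WT. Gjc3 read 171 and 165 CPM in 6-month WT, 356 and 331 in 6-month KO, 537 and 497 in 18-month WT, and 413 and 389 in 18-month KO. Gjb1 read 73.6 and 76.8 CPM in 6-month WT, 163 and 184 in 6-month KO, 215 and 211 in 18-month WT, and 130.4 and 137 in 18-month KO. The pair differed in the middle of the order: KO at 18 months was above KO at 6 months for Gjc3 and below it for Gjb1.

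**Figure D1:**
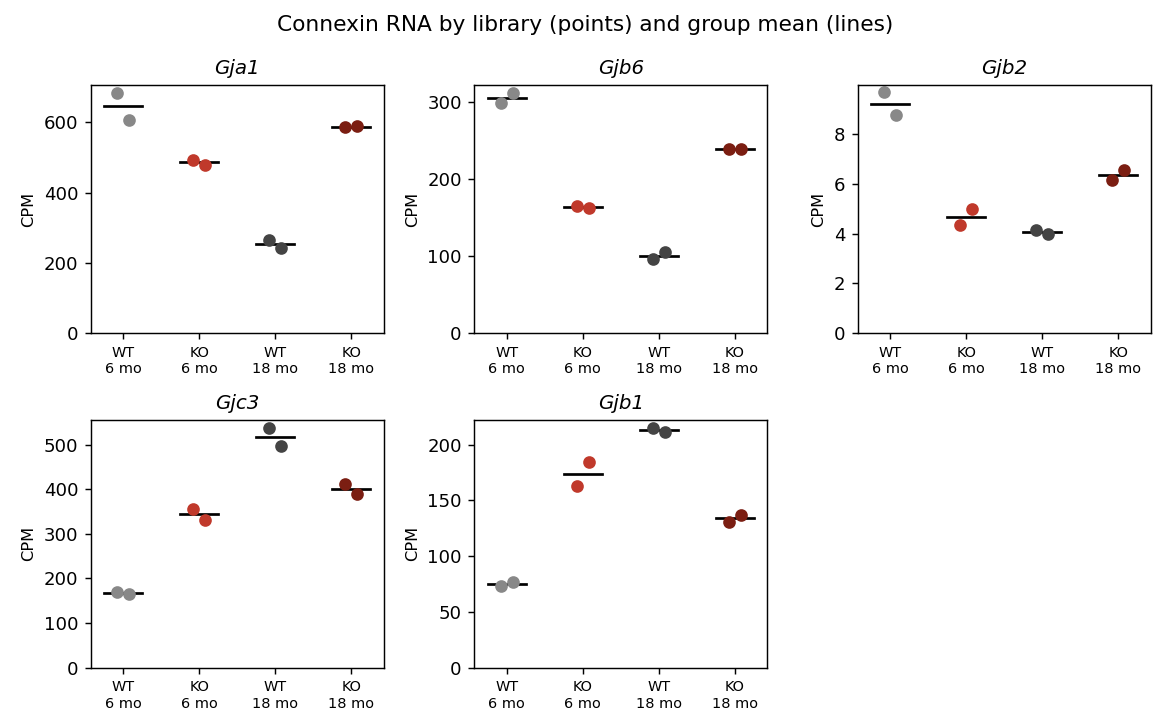
Level of the 5 glial connexins in CPM (vertical axes, each from 0) in the 4 groups. Points are the 2 libraries of a group and lines their mean. Gja1, Gjb6 and Gjb2 are highest in WT at 6 months and lowest in WT at 18 months, and Gjc3 and Gjb1 the reverse.

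At 6 months the 3 astrocyte connexin genes were lower in KO and the 2 oligodendrocyte members were higher. Gja1 fell by 0.41 ± 0.06 on the log2 scale (SE; 1.33-fold, edgeR adjusted p = 7.37e-06). Gjb6 fell by 0.90 ± 0.06 (1.87-fold, edgeR adjusted p = 2.34e-11). Gjb2 fell by 0.98 ± 0.22 (1.97-fold, edgeR adjusted p = 0.00114). Gjc3 rose by 1.03 ± 0.06 (2.04-fold, edgeR adjusted p = 4.44e-12) and Gjb1 by 1.20 ± 0.07 (2.30-fold, edgeR adjusted p = 4.07e-12). Thus 5 of 5 members passed the test, 2 higher and 3 lower, where 38.8% of all tested genes passed it (19.2% higher, 19.6% lower). The members' groups did not overlap, which held for 66.8% of tested genes.

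At 18 months each direction was turned. Gja1 rose in KO by 1.22 ± 0.06 on the log2 scale (2.32-fold, edgeR adjusted p = 6.28e-13) and Gjb6 by 1.24 ± 0.06 (2.37-fold, edgeR adjusted p = 5.75e-13). Gjb2 rose by 0.65 ± 0.21 (1.57-fold, edgeR adjusted p = 0.0213), which no longer passed by DESeq2 (adjusted p = 0.132) and with any 1 of the 4 libraries of 18 months left out (edgeR adjusted p from 0.0574 to 0.134). Gjc3 fell by 0.37 ± 0.06 (1.29-fold, edgeR adjusted p = 2.56e-05) and Gjb1 by 0.67 ± 0.06 (1.59-fold, edgeR adjusted p = 1.59e-08). Again 5 of 5 passed, 3 higher and 2 lower, against 32.1% of tested genes (14.7% higher, 17.4% lower). No member's groups overlapped, which held for 66.6% of tested genes.

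Whether the genotype effect changed with age was itself tested as the interaction, the 18-month log2 ratio of KO to WT less the 6-month one. It was 1.63 ± 0.09 for Gja1 (edgeR adjusted p = 2.34e-13), 2.14 ± 0.09 for Gjb6 (3.10e-15) and 1.63 ± 0.31 for Gjb2 (1.52e-04). It was -1.40 ± 0.09 for Gjc3 (edgeR adjusted p = 2.79e-12) and -1.88 ± 0.10 for Gjb1 (1.60e-13). All 5 passed, 3 above and 2 below 0, where 39.1% of tested genes did (18.4% above, 20.7% below). When the ages were joined in an additive model of age and genotype, 0 of 5 members passed with edgeR (3.11% of tested genes did, 0.692% higher and 2.42% lower), with log2 values from -0.15 for Gjb2 to 0.40 for Gja1. DESeq2 also called 0 of 5 in that model, and 0 of 5 had an unadjusted p under 0.05 in the edgeR fit (the lowest was 0.217, for Gja1). That model fits a single genotype effect to both ages, so the opposite effects of the 5 members enter its spread. For Gja1 the SE was 0.30 there, against 0.06 at each age. The additive results therefore cannot show that the average over the ages was 0.

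The interaction above is also the test of whether the change with age differed between WT and KO, as a signed difference. From 6 to 18 months in WT, Gja1 fell by 1.35 ± 0.06 (2.55-fold, edgeR adjusted p = 4.25e-15), Gjb6 by 1.59 ± 0.06 (3.02-fold, edgeR adjusted p = 2.57e-16) and Gjb2 by 1.18 ± 0.22 (2.27-fold, edgeR adjusted p = 7.32e-05). Gjc3 rose by 1.62 ± 0.06 (3.07-fold, edgeR adjusted p = 1.90e-16) and Gjb1 by 1.50 ± 0.07 (2.84-fold, edgeR adjusted p = 8.66e-15). So 5 of 5 members passed, 2 higher and 3 lower, where 59% of tested genes did (28.2% higher, 30.8% lower). Their groups did not overlap, as for 77.4% of tested genes. In KO the log2 estimates were smaller in size, and for the 4 members other than Gjc3, whose signs were opposite in WT and KO, the difference in size was not tested. Gja1 rose by 0.27 ± 0.06 (edgeR adjusted p = 0.00112) and Gjb6 by 0.55 ± 0.06 (edgeR adjusted p = 1.91e-07), while Gjb2 at 0.44 ± 0.21 did not pass (edgeR adjusted p = 0.123). Gjc3 rose by 0.22 ± 0.06 (edgeR adjusted p = 0.00546) and Gjb1 fell by 0.37 ± 0.07 (edgeR adjusted p = 1.01e-04), so that 4 of 5 passed, 3 higher and 1 lower, against 31.7% of tested genes (13.8% higher, 17.9% lower). Both libraries of one group were above both of the other for all 5, as for 67.3% of tested genes. The Gjc3 call was lost without the second KO library of 6 months or without the first KO library of 18 months (edgeR adjusted p = 0.111 and 0.0587). The comparisons share groups (WT at 6 months enters both KO against WT at 6 months and the age comparison in WT), so their directions are not independent.

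**Figure D2:**
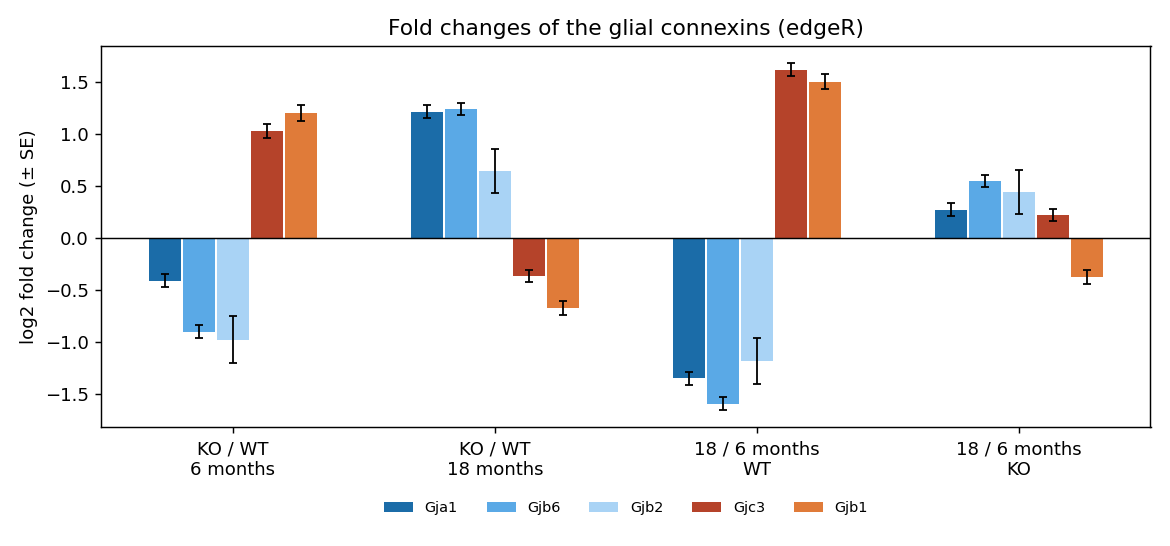
Log2 fold changes (vertical axis) of the 5 glial connexins in the 4 pairwise comparisons, from edgeR. Bars are estimates and error bars 1 SE. Gja1, Gjb6 and Gjb2 point the opposite way from Gjc3 and Gjb1 in both genotype comparisons and in the WT age comparison, while in the KO age comparison Gjc3 is above 0 with the astrocyte genes.

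Astrocyte and oligodendrocyte markers moved with the connexins in both genotype comparisons. The summed level of 12 astrocyte markers was 11831 to 11928 CPM in 6-month WT, 6994 to 7047 in 6-month KO, 3984 to 4051 in 18-month WT and 8593 to 8617 in 18-month KO. That of 12 oligodendrocyte markers was 14186 to 14234, 30777 to 31708, 41543 to 41600 and 28193 to 28712 CPM in the same order. All 12 astrocyte markers fell and all 12 oligodendrocyte markers rose in KO at 6 months, and at 18 months all 12 rose and all 12 fell. Of all tested genes, 19.2% rose and 19.6% fell at 6 months, and 14.7% rose and 17.4% fell at 18 months. From 6 to 18 months in KO, 8 astrocyte markers rose and 0 fell, and 2 oligodendrocyte markers rose and 6 fell. Of all tested genes, 13.8% rose and 17.9% fell in that comparison. There Gjc3 rose (log2 0.22), while the median of the oligodendrocyte markers was -0.19. No marker of either list was at 0. In sorted bulk RNA, fewer cells of a type and less RNA per cell cannot be told apart.

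Divided by the marker sum of their own cell type, the connexins varied much less between libraries. Gjb6 spanned 23.0 to 27.8 CPM per 1000 CPM of astrocyte markers, a range of 1.21-fold where its CPM ranged 3.25-fold. Gja1 spanned 50.8 to 70.6, or 1.39-fold against 2.83-fold, and was lowest in WT at 6 months (57.8 and 50.8), with every other library between 59.6 and 70.6. Gjb2 spanned 0.622 to 1.04, or 1.67-fold against 2.43-fold, and was highest in WT at 18 months (1.04 and 0.988). Against oligodendrocyte markers, Gjc3 spanned 10.7 to 14.4, or 1.34-fold against 3.25-fold, and was highest in KO at 18 months (14.4 and 13.8). Gjb1 spanned 4.54 to 5.99, or 1.32-fold against 2.93-fold, and was lowest in KO at 18 months (4.54 and 4.87).

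**Figure D3:**
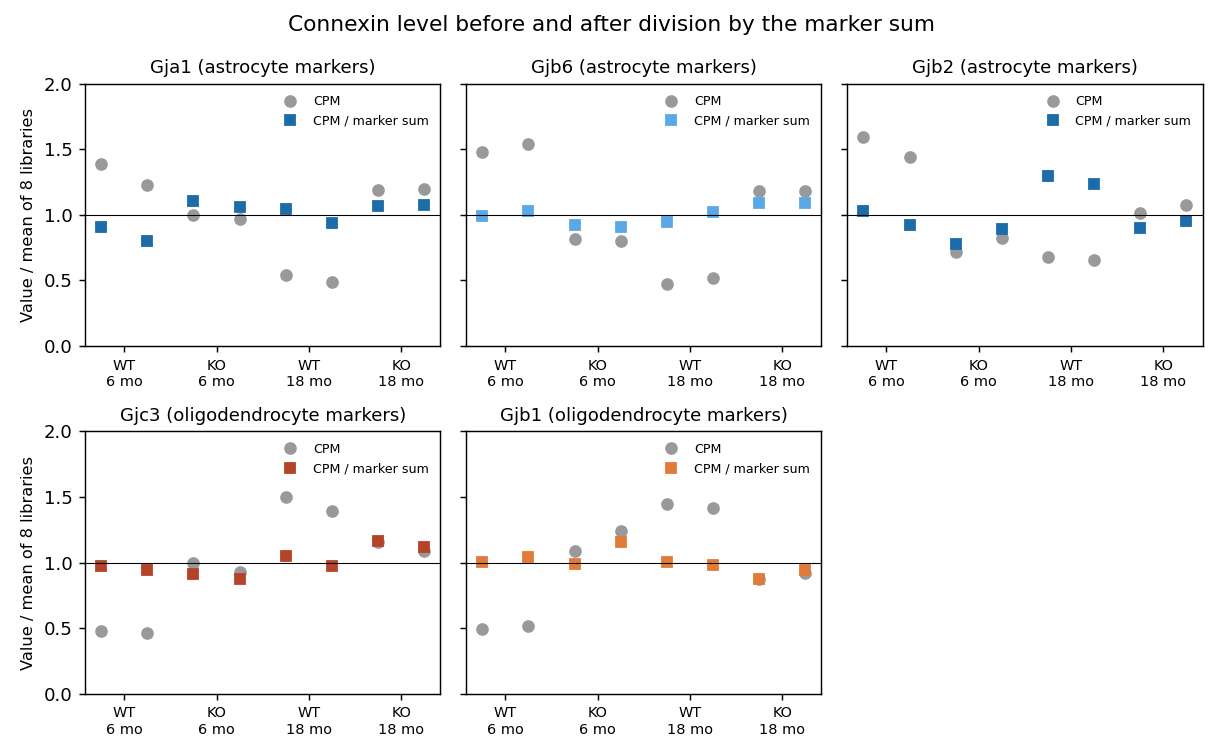
Each connexin's value in each library, divided by its mean over the 8 libraries (vertical axis), as CPM (grey circles) and as CPM divided by the summed CPM of 12 astrocyte or 12 oligodendrocyte markers (coloured squares). For each connexin the squares span a narrower range than the circles, though single squares can lie further from 1. For Gjb6 the highest library is 1.21-fold the lowest after division and 3.25-fold before.

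Set beside the single markers, some connexins stood at the edge of their list. In KO against WT at 6 months, Gja1 at -0.41 fell less than each of the 12 astrocyte markers, which ranged from -1.12 to -0.53. In KO against WT at 18 months, Gjc3 at -0.37 fell less than each of the 12 oligodendrocyte markers, by a small margin, as these ranged from -0.98 to -0.37, and Gjb2 at 0.65 rose less than each astrocyte marker (0.79 to 1.27). From 6 to 18 months in WT, Gjb2 at -1.18 fell less than each astrocyte marker (-2.17 to -1.33). From 6 to 18 months in KO, Gjb6 at 0.55 rose more than each astrocyte marker (-0.19 to 0.46). Gjb1 lay inside the range of the oligodendrocyte markers in all 4 pairwise comparisons. These differences between genes were not tested.

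Marker lists of other cell types were summed in the same way, which does not measure how much RNA each type gave. Over the 8 libraries, 8 meningeal fibroblast markers, of interest for Gjb2, reached 30.8 to 114 CPM, with Lum and Slc22a6 at 42 and 17 reads in all. Markers of oligodendrocyte precursors (7 genes) reached 691 to 2514 CPM, pericytes and smooth muscle (8) 844 to 2081, endothelium (8) 75.4 to 125, and microglia (8) 71.9 to 169. Excitatory neurons (6) reached 19.8 to 172 CPM, ependyma and choroid plexus (6) 10.5 to 26.6, and red blood cells (5) 14.5 to 117. Precursor markers were highest in WT at 6 months (2478 to 2514 CPM) and lowest in KO at 18 months (691 to 700.0), and fibroblast markers were highest in WT at 6 months (105 to 114 CPM) and lowest in WT at 18 months (30.8 to 33.3). Their part in the connexin levels was not tested.

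Per kilobase of exon, the balance between astrocyte and oligodendrocyte connexins turned over between groups. Of the summed CPM per kb of the 5 members, the 3 astrocyte genes made up 68.9 and 68.3% in 6-month WT, 38.6 and 37.2% in 6-month KO, 20.3 and 21.3% in 18-month WT, and 46.5 and 46.8% in 18-month KO. Among these 5 genes, WT thus went from mostly astrocyte to mostly oligodendrocyte connexin RNA, and the KO groups lay between. With the longest transcript as length, the same shares were 78.3 and 77.4%, 51.9 and 50.3%, 29.9 and 30.6%, and 59.0 and 59.3%. The length choice matters for Gja1, whose exons together span 10257 bases while its longest annotated transcript has 3889. On the first length Gjb6 was above Gja1 in all 8 libraries (112 and 116 against 66.7 and 59.1 CPM per kb in WT at 6 months), and on the second Gja1 was above Gjb6 in all 8 (176 and 156 against 142 and 148). Gjb2 was lowest of the 5 on both, at 1.66 to 4.04 CPM per kb. Gjb1 was above Gjc3 on both lengths in the 6 libraries outside KO at 18 months, and Gjc3 was above Gjb1 in the 2 KO libraries of 18 months.

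**Figure D4:**
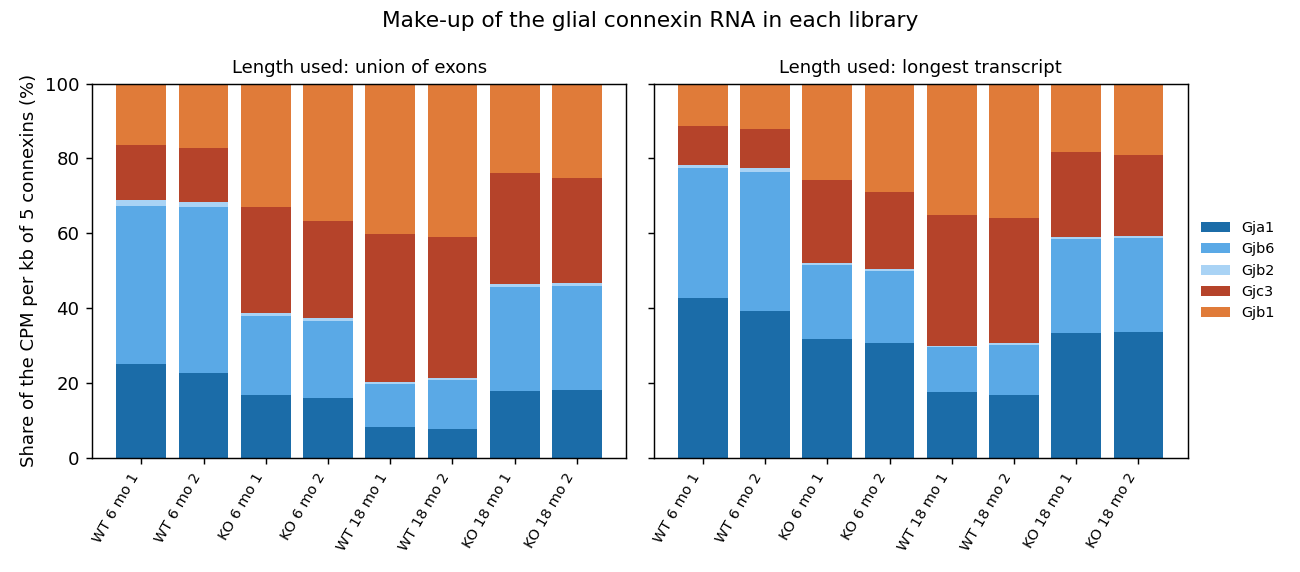
Share (%) of the 5 connexins in their summed CPM per kb, per library, with the union of exons (left) or the longest transcript (right) as gene length. Blue shades are astrocyte connexins, which make up 68.9% in the first WT library of 6 months and 20.3% in the first WT library of 18 months on the left, and 78.3 and 29.9% on the right.

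Ratios of reads within a cell type moved less than a ratio across types. Reads of Gja1 per read of Gjb6 were 2.29 and 1.95 in WT and 3.00 and 2.95 in KO at 6 months, and 2.77 and 2.29 in WT and 2.45 and 2.46 in KO at 18 months. Reads of Gjc3 per read of Gjb1 were 2.32 and 2.15, 2.19 and 1.79, 2.50 and 2.35, and 3.16 and 2.83 in the same order, so KO at 18 months was above the rest. For partners across the glial junction, reads of Gjb6 per read of Gjb1 were 4.06 and 4.05, 1.01 and 0.878, 0.445 and 0.498, and 1.83 and 1.74. This cross-type ratio thus had the order WT at 6 months, KO at 18 months, KO at 6 months, WT at 18 months.

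The 5 members held 84.7 to 91.2% of the reads of the 20 connexin genes in each library. Of the other 15, Gja4, Gjc1 and Gja6 are described here. Gja4 (connexin 37), typical of arterial endothelium, averaged 17.3 ± 0.0689 CPM in 6-month WT and 22.4 ± 1.57 in 6-month KO (SD, n = 2), and 7.60 ± 0.953 and 13.5 ± 2.25 in the 18-month groups. It rose in KO at 18 months (log2 0.84 ± 0.16, edgeR adjusted p = 2.98e-04) and did not pass at 6 months (0.37 ± 0.15, edgeR adjusted p = 0.0595), though it did without either WT library of 18 months (edgeR adjusted p = 0.0455 and 0.0467). Gjc1 (connexin 45), known from vascular muscle and some neurons, rose at both ages, from 22.7 ± 4.03 to 30.1 ± 1.47 CPM at 6 months (log2 0.41 ± 0.13, edgeR adjusted p = 0.0160) and from 13.5 ± 1.17 to 31.4 ± 0.186 CPM at 18 months (1.20 ± 0.13, edgeR adjusted p = 6.52e-08). At 6 months it no longer passed by DESeq2 (adjusted p = 0.0603) and without the second library of either group (edgeR adjusted p = 0.213 without WT and 0.0857 without KO). The summed level of the 8 pericyte and smooth muscle markers averaged 1767 CPM in 6-month WT and 2042 in 6-month KO, and 851 and 1673 CPM in the 18-month groups. Of these 8, 3 rose and 1 fell in KO at 6 months, where 19.2% of all tested genes rose and 19.6% fell. At 18 months 6 rose and 0 fell, where 14.7% of all tested genes rose and 17.4% fell. The 8 endothelial markers summed to 122 and 119 CPM in the 6-month groups and 78.4 and 95.7 CPM in the 18-month groups, WT before KO. Their part in the Gja4 and Gjc1 values was not tested. Gja6 (8 libraries, 152 reads in all) passed in no comparison. The neuronal connexin 36 gene Gjd2 had 3 reads over the 8 libraries.

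Pannexins form channels to the outside of the cell and are unrelated to connexins in sequence. Panx1 fell in KO at both ages, from 12.2 ± 1.16 to 4.39 ± 0.212 CPM at 6 months (log2 -1.47 ± 0.24, edgeR adjusted p = 2.16e-05) and from 3.49 ± 0.912 to 1.55 ± 0.248 CPM at 18 months (-1.13 ± 0.31, edgeR adjusted p = 0.00627). Panx2, the neuronal pannexin, fell as well, by 0.84 ± 0.24 at 6 months (edgeR adjusted p = 0.00748) and 1.05 ± 0.34 at 18 months (edgeR adjusted p = 0.0209). Panx1 at 18 months did not pass without the first WT or the first KO library of that age (edgeR adjusted p = 0.0770 and 0.0739). Panx2 did not pass by DESeq2 at 6 or 18 months (adjusted p = 0.0592 and 0.0603), nor at 6 months without the second KO library (edgeR adjusted p = 0.142), nor at 18 months without the second WT library or either KO library (edgeR adjusted p = 0.347, 0.0659 and 0.0961). With age both fell in WT and in KO, by 1.50 to 2.15 on the log2 scale. Neuron markers also differed between the groups: the 9 of parvalbumin and GABA neurons summed to means of 240.5 CPM in 6-month WT, 54.6 in 6-month KO, 30.5 in 18-month WT and 18.8 in 18-month KO. For the 6 excitatory neuron markers the means of those groups were 169, 151, 45.0 and 22.1 CPM. Their part in the pannexin values was not tested. Panx3 had no reads.

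Of 15 genes known as connexin partners in scaffolding, phosphorylation, folding or turnover, 3 rose and 7 fell in KO at 6 months (median log2 -0.15) and 1 rose and 8 fell at 18 months (median -0.14; over all tested genes 0.00 at both ages). Over all tested genes, 19.2% rose and 19.6% fell at 6 months, and 14.7% rose and 17.4% fell at 18 months. Cdh2 (N-cadherin), which holds cells together at the adherens junction, went the way of Gja1: 173 CPM in 6-month WT against 114 in 6-month KO (log2 -0.59 ± 0.06, edgeR adjusted p = 4.53e-08) and 84.7 against 137 CPM at 18 months (0.70 ± 0.06, edgeR adjusted p = 5.83e-09). Dbn1 (drebrin), an actin-binding protein that binds connexin 43, fell in KO at 6 months from 54.3 to 30.7 CPM (log2 -0.82 ± 0.13, edgeR adjusted p = 1.23e-05) and did not pass at 18 months (0.23 ± 0.16, edgeR adjusted p = 0.285). Prkce, a protein kinase C, fell at both ages (log2 -0.79 ± 0.10 and -0.35 ± 0.12, edgeR adjusted p = 1.21e-06 and 0.0277).

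Of 9 genes of ion and water handling in the glial network, 2 rose and 6 fell in KO at 6 months (median log2 -0.72) and 6 rose and 0 fell at 18 months (median 0.92), beside the same shares over all tested genes. Hepacam and Kcnj10 were the 2 that rose at 6 months. The bicarbonate transporter Slc4a4 averaged 710.4 CPM in 6-month WT against 419 in 6-month KO (log2 -0.76 ± 0.05, edgeR adjusted p = 3.71e-11) and 232 against 479.6 for the 18-month pair (1.04 ± 0.05, edgeR adjusted p = 7.41e-13). The astrocyte membrane protein Mlc1 also fell at 6 and rose at 18 months (log2 -0.95 ± 0.07 and 1.10 ± 0.07).

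Each member's pattern over the 8 libraries was set beside 9499 other genes by the root mean square difference of centred log2 CPM (over 9500 genes for Gjb2). Near Gja1 were Pde7b (0.0431) and the astrocyte glutamate transporter Slc1a2 (0.0782). Nearest to Gjb6 were the glycogen phosphorylase Pygm (0.0522), the phagocytic receptor Mertk (0.0535) and the integrin Itga6 (0.0556), and nearest to Gjb2 Fam184a (0.0902), Ptprz1 (0.0919) and Hdac4 (0.0921). Nearest to Gjc3 were Erbin (0.0369), Ttll7 (0.0492) and Plxdc2 (0.0493), and nearest to Gjb1 Adamtsl4 (0.0585), the myelin glycoprotein Mog (0.0597) and Lgi3 (0.0694). Between members the difference was 0.197 for Gja1 and Gjb6 and 0.234 for Gjc3 and Gjb1, and 1.02 to 1.15 for each pair of an astrocyte and an oligodendrocyte member. The genes and members share their 8 libraries, so these are descriptions of pattern.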

How the data were processed

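The authors deposited raw read counts per gene for each of 8 libraries, and the submitters' processing notes name STAR 2.5.2a, featureCounts 1.5.0-p1, CASAVA 1.8.2 and the mm10 build. How strand and multi-mapping reads were handled is not given in the labels. Symbols came from GENCODE M21, which named 55480 of 55573 IDs.

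Genes that filterByExpr kept at its minimum of 10 counts were scaled by TMM and tested by the quasi-likelihood method of edgeR 4.0.16 (R 4.3.3). The 4 groups entered 1 model with 4 residual degrees of freedom. Adjusted p-values are Benjamini-Hochberg over the 18205 tested genes, with a threshold of 0.05, and an additive model gave KO against WT across both ages. CPM uses TMM-scaled totals. The fit was also tested on simulated data. It missed many changes in genes with few reads, such as Gjb2, at both fold sizes simulated, and some of the smaller changes in genes with more reads. The criterion for passing was first set over all genes, was not met, and was then limited to genes with more reads. The alternatives tried were DESeq2 1.42.0, other scalings, no filter, fewer groups, a replicate block and each library left out.

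The members and lists were chosen with earlier results of these data known. The genes named are the 5 members, other connexins and pannexins that passed the filter, up to 3 genes of each of the partner and network lists with the smallest p, Dnmt1, Pvalb, and the 3 genes most like each member among those with a mean of at least 10 CPM. Gjd2, Lhx6, Hepacam, Kcnj10, Lum and Slc22a6 were named after their values were seen. A few genes that this rule takes are not reported here.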

Additional observations from a re-analysis of the deposited data

Results flagged for a closer look

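The genotype effect differed between the ages for all 5 members and for Gjc1, as it did for 39.1% of all tested genes. By the edgeR interaction test, the 18-month log2 ratio of KO to WT less the 6-month one was 1.63 for Gja1, 2.14 for Gjb6, 1.63 for Gjb2, -1.40 for Gjc3, -1.88 for Gjb1 and 0.79 for Gjc1. For the 5 members the direction turned between the ages, and for Gjc1 both ages were higher in KO. The summed astrocyte and oligodendrocyte markers turned in the same way as the members of their cell type, and their part in these differences was not tested. WT at 6 months, the group that stood apart in correlation, enters each of these values.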

How the results depend on the processing

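The number of members that passed the test stayed within 1.5 times in every setting run: 5 at 6 months, 4 to 5 at 18 months, 5 in the WT age comparison, 3 to 4 in the KO age comparison, 5 for the interaction and 0 in the additive model. Of 420 member values under an alternative, 407 kept direction and side of the threshold, 7 lost their call (Gjb2 in KO at 18 months and Gjc3 with age in KO) and 6 changed sign, all in the additive model, where no member passed. Those sign changes came with 1 library left out, over which the log2 value ran from -0.35 to 0.0713 for Gjb2, -0.00951 to 0.53 for Gjb1 and -0.13 to 0.50 for Gjb6. Gja6, which never passed, ran with 1 library left out from -0.32 to 1.13 at 6 months, -0.0696 to 1.38 with age in WT, -1.03 to 0.42 for the interaction and -0.0355 to 0.35 in the additive model, and its interaction was 0.0771 with library totals only. The Panx2 interaction ran from -0.46 to 0.13. Without both WT libraries of 6 months, an alternative chosen after seeing the data, no member's call changed in the comparisons that remain. The additive Gjc1 call was lost in 9 settings; the cause was not tested.

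The count of all tested genes called in the additive model moved from 566 to 1458 with no filter, 1063 with DESeq2, 274 with the replicate block and 146 to 376 with 1 library left out. DESeq2 called 3736 genes in the KO age comparison where edgeR called 5775, and leaving out 1 library gave as few as 3255 there and 3737 of 5844 for KO against WT at 18 months. Library totals only moved the median of all genes by 0.14 at 18 months and 0.19 for the interaction, and the higher and lower calls from 2679 and 3165 to 4268 and 1848 at 18 months, from 2512 and 3263 to 3839 and 2543 with age in KO, and from 3358 and 3768 to 4769 and 2651 for the interaction; members kept their directions in these comparisons. Differences between replicates 1 and 2 correlated at most weakly between groups, with r from -5.24e-06 to 0.0758 across genes. Whether libraries of the same replicate number share a batch cannot be told from such values. With the replicate block the number of members that passed was the same. The log2 values with the block were, for example, -0.41 for Gja1 and 1.20 for Gjb1 in KO against WT at 6 months. Few reads limit Gjb2.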
